A study of Mus musculus with 48 samples.

Results

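Clock, Arntl and Npas2 encode the activating arm of the molecular clock, and Bhlhe40 and Bhlhe41 encode a pair of repressors that act on the same DNA elements. These 5 genes were chosen by name, and every array probe whose RefSeq accession belongs to 1 of them was taken as a member. That gave 8 probes of 41174 on the array, for 5 of 18883 named genes: 3 probes for Clock, 2 for Bhlhe41 and 1 each for Arntl, Npas2 and Bhlhe40. All 8 probes were well above background on all 48 arrays, so none was lost to a filter on low signal.

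CLOCK pairs with BMAL1, the protein of Arntl, and the pair binds E-box elements to switch on the Per and Cry genes, whose proteins then feed back on the pair. NPAS2 is a close relative of CLOCK that can also partner BMAL1 and is best known from the forebrain. BHLHE40 and BHLHE41 bind E-boxes and repress transcription there, and BHLHE41 is known from human genetics for its link to sleep duration.

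Frontal cortex and hypothalamus were taken from 24 mice at the end of 12 h of sleep deprivation in the light phase, with 1 array for each tissue of each mouse. In Per3 5/5 mice (n = 8) and Per3 4/4 mice (n = 8), a mouse Per3 exon had been replaced on both alleles by its human PER3 counterpart, which carries 5 or 4 copies of a tandem repeat found in primates. The wild-type (WT) mice (n = 8) came from the same transgenic stock. All 3 genotypes were of C57BL/6 background and had passed through a cross to a ROSA26 PGK-Cre deleter line, with the Cre bred out afterwards. The exchange was constitutive, and each genotype was kept as a line bred from homozygous pairs. Every mouse was sleep deprived and none was left undisturbed, so the values describe genotypes and tissues after sleep loss and say nothing of the response to it. The tissues were dissected as blocks of mixed cells, and a change in the share of a cell type and a change of RNA within that cell type cannot be told apart.

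Dissections and arrays were checked before the members were compared. All 7 cortex markers (such as Tbr1 and Emx1) were lower in hypothalamus and all 8 hypothalamus markers (such as Oxt and Hcrt) were higher there, in each genotype. The arrays themselves differed by genotype, because the 75th percentile of the signal in cortex was 1266 ± 180 intensity units (SD, n = 8) for WT, 908 ± 139 for Per3 5/5 and 745 ± 267 for Per3 4/4 arrays. The scans fell on 3 days, and no day covered the genotypes evenly. WT arrays (5 mice) were scanned beside 3 Per3 4/4 mice on day 2, and the other 3 WT mice beside 4 of Per3 5/5 and 1 of Per3 4/4 on day 3. Day 1 was without WT and took the remaining 4 of each knock-in. Called differences of the members from WT are therefore also given from a fit with scan day as a block. The Per3 probe itself was higher than WT by 0.69 ± 0.14 (SE) on the log2 scale in cortex of Per3 5/5 mice and by 0.41 ± 0.14 in cortex of Per3 4/4 mice, and with the block by 0.54 ± 0.17 (adjusted p = 0.0839) and 0.34 ± 0.15 (adjusted p = 0.175), neither of which was called. Where that probe lies relative to the exchanged exon was not analysed here, so it does not check the labels. Some arrays stood apart: the hypothalamus of WT replicate 8 had a summed level of 5 pituitary markers of 903 times the array's 75th percentile against a group median of 26.1, and the cortex of WT replicate 3 had a summed level of 7 striatum markers of 154 against a group median of 34.7.

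Levels below are log2 processed signals with the 75th percentile of the array set to 0. Because a probe's brightness depends on its sequence, levels are compared between groups for the same probe and never between probes. A difference was called when its Benjamini-Hochberg adjusted p from limma, over all probes tested, was under 0.05.

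The probes moved in different directions between genotypes. Bhlhe41 was higher in both knock-ins than in WT, Clock was lower in Per3 4/4 mice at 2 of its 3 probes, and Npas2 was higher in cortex of Per3 5/5 mice. Arntl and Bhlhe40 passed no test between genotypes. No member probe passed the test between the knock-ins in either tissue.

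In cortex, 2 of the 8 member probes were called between Per3 5/5 and WT, where 12.4% of all 29715 probes tested were called, and 4 of 8 between Per3 4/4 and WT, where 22.5% were called. In hypothalamus, 2 of 8 were called between Per3 5/5 and WT (18.8% of 30735 probes tested) and 3 of 8 between Per3 4/4 and WT (15.1%). Both comparisons within a tissue share the same 8 WT arrays. With scan day as a block the member counts were 1 and 2 in cortex, where 0.986% and 7.72% of all probes were called, and 0 and 0 in hypothalamus, where 2.1% and 0.745% were called. On the arrays of a single scan day, 3 to 5 mice a side, 0 of 8 were called in each comparison with WT, where 0.00337% and 0.552% of all probes were called in cortex and 0.00325% and 0.0163% in hypothalamus. Normexp, a different background correction, moved the median of all probes between Per3 4/4 and WT from 0.02 to 0.23 in cortex and to 0.16 in hypothalamus, and median centring moved that between Per3 5/5 and WT in cortex from 0.06 to −0.05.

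**Figure D1:**
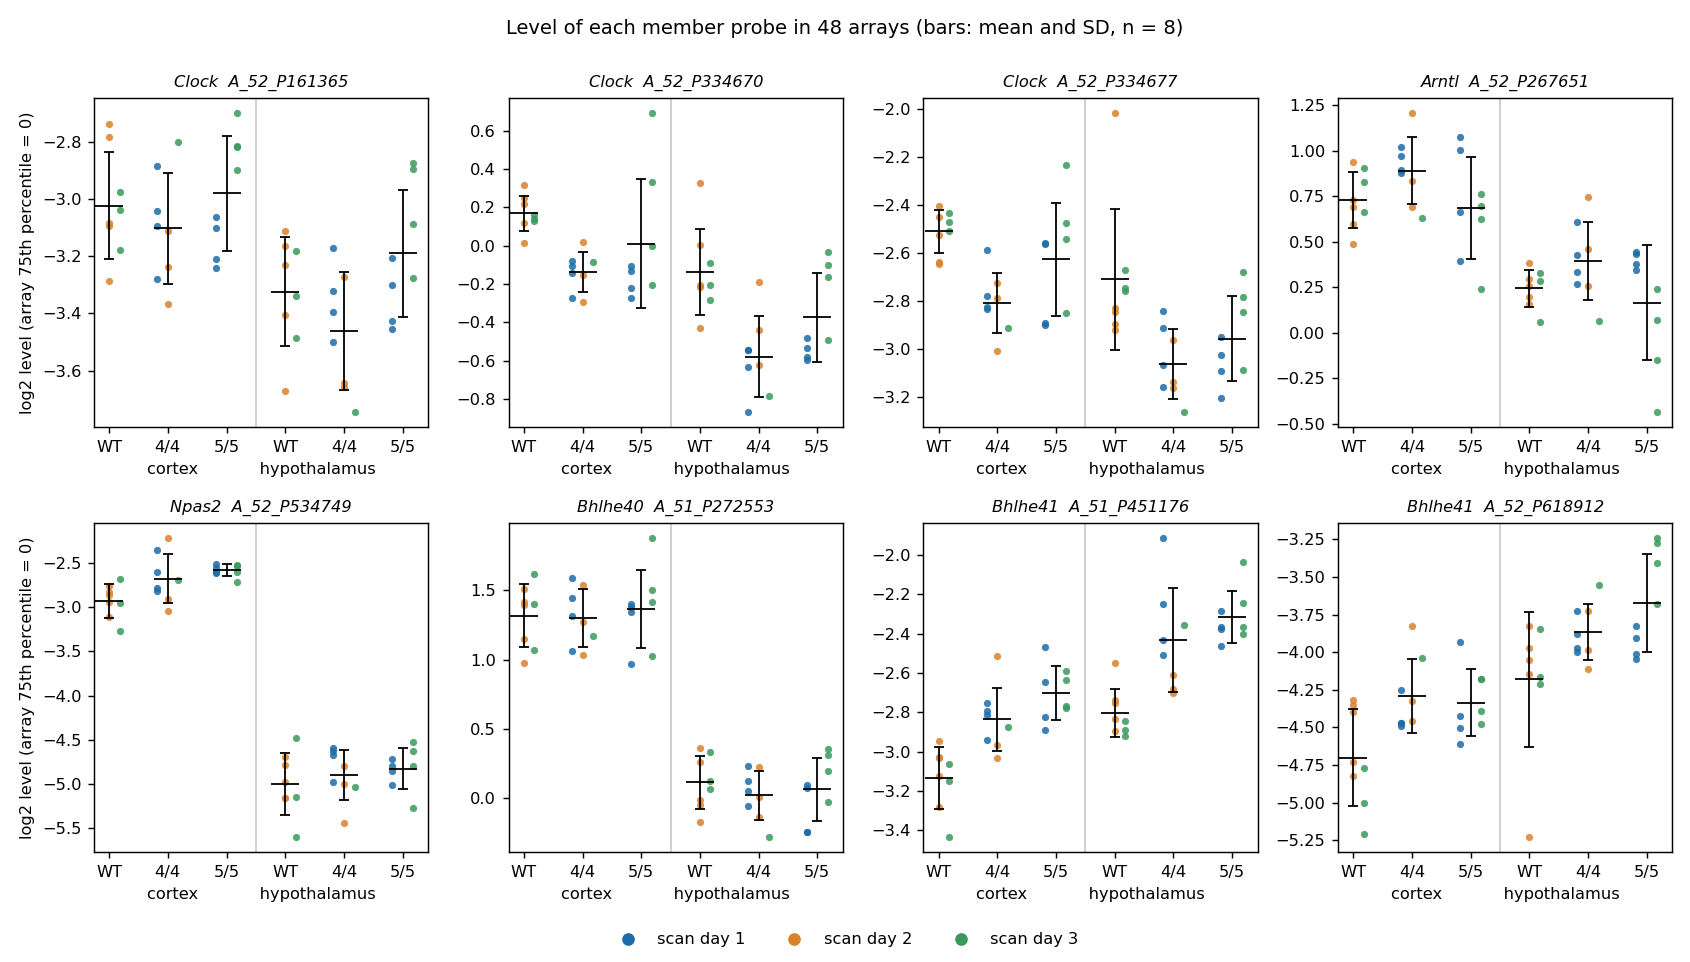
Log2 level of each of the 8 member probes (array 75th percentile = 0) by tissue and genotype, 1 point for each array coloured by scan day, with black bars for the mean and SD (n = 8). The scales differ between panels. Npas2 and Bhlhe40 sit lower in all 24 hypothalamus arrays than in the cortex arrays, and for Bhlhe41 A_51_P451176 all 8 Per3 5/5 arrays lie above all 8 WT arrays in both tissues.

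Clock was measured by 3 probes. At A_52_P334670 the level in cortex had a lowest, median and highest value of 0.01, 0.15 and 0.32 in WT, −0.29, −0.12 and 0.02 in Per3 4/4, and −0.27, −0.12 and 0.69 in Per3 5/5 mice. In cortex, 7 of 8 Per3 4/4 arrays lay below all WT arrays, while the Per3 5/5 arrays were spread from below to above the WT range. The Per3 4/4 difference from WT was −0.31 ± 0.11 (SE, adjusted p = 0.0395), a level 1.24-fold lower. With the scan day block it was −0.21 ± 0.11 (adjusted p = 0.243), and on the arrays of day 2 alone, 3 Per3 4/4 against 5 WT, it was −0.32 (adjusted p = 0.134). This cortex call ended in 13 of the 24 fits that each left out a mouse: Per3 4/4 replicate 1, 2, 3, 4, 6 or 7, or WT replicate 1, 3, 4, 5, 6, 7 or 8. Over those 24 fits the difference ran from −0.33 to −0.28 and the adjusted p from 0.00548 to 0.0737.

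In hypothalamus the same Clock probe had a lowest, median and highest value of −0.43, −0.21 and 0.33 in WT, −0.87, −0.58 and −0.19 in Per3 4/4, and −0.60, −0.49 and −0.03 in Per3 5/5 mice. There, 7 of 8 Per3 4/4 arrays again lay below all WT arrays. At no member probe were the 8 Per3 4/4 arrays fully apart from the 8 WT arrays, as they were at 6.7% of all probes tested in cortex and 1.86% in hypothalamus. The Per3 4/4 difference was −0.44 ± 0.11 (adjusted p = 0.0165), or 1.36-fold lower, and it was called in all 24 fits that left out a mouse. With the scan day block it was −0.31 ± 0.12 (adjusted p = 0.149). In Per3 5/5 mice the difference from WT was −0.16 ± 0.11 in cortex (adjusted p = 0.313) and −0.24 ± 0.11 in hypothalamus (adjusted p = 0.139). Without Per3 5/5 replicate 8, the cortex value became −0.25 with an adjusted p of 0.0257. In Per3 5/5 cortex the 4 arrays of day 1 lay between −0.27 and −0.11 and the 4 of day 3 between −0.21 and 0.69, so the days overlapped.

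The second Clock probe, A_52_P334677, ran with the first. Its lowest, median and highest cortex levels were −2.65, −2.49 and −2.41 in WT, −3.01, −2.81 and −2.59 in Per3 4/4, and −2.90, −2.56 and −2.23 in Per3 5/5 mice. In cortex, 7 of 8 Per3 4/4 arrays lay below all WT arrays, and the difference was −0.30 ± 0.09 (adjusted p = 0.0160), or 1.23-fold lower. With the scan day block it was −0.28 ± 0.10 (adjusted p = 0.0726). Normexp took the cortex difference to 0.04 (adjusted p = 0.75) and the hypothalamus difference to −0.09 (adjusted p = 0.572).

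In hypothalamus the levels of A_52_P334677 were −2.92, −2.79 and −2.01 in WT, −3.27, −3.10 and −2.84 in Per3 4/4, and −3.20, −2.99 and −2.68 in Per3 5/5 mice. The value of −2.01 belonged to WT replicate 3 and stood apart from the other 7 WT arrays, which lay between −2.92 and −2.67. The Per3 4/4 difference in hypothalamus was −0.35 ± 0.11 (adjusted p = 0.0342) over all mice and −0.25 (adjusted p = 0.0422) without WT replicate 3. It missed the threshold without Per3 4/4 replicate 1, 3, 7 or 8 or WT replicate 6 (adjusted p of up to 0.0686) and with the scan day block (−0.33 ± 0.13, adjusted p = 0.156). It also missed it with array brightness as a covariate (−0.30, adjusted p = 0.165), with slide as a random block (−0.34, adjusted p = 0.0641) and in the authors' table (−0.35, adjusted p = 0.0501). The Per3 5/5 difference was −0.12 ± 0.08 in cortex (adjusted p = 0.352) and −0.25 ± 0.11 in hypothalamus (adjusted p = 0.108).

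The third Clock probe, A_52_P161365, passed no test between genotypes in the main fit. With normexp it was higher than WT in cortex by 0.31 in Per3 4/4 (adjusted p = 0.00438) and by 0.25 in Per3 5/5 mice (adjusted p = 0.0315). Normexp called 16259 and 9319 of all 29715 probes in those comparisons, 13636 and 7909 of them higher. The cortex medians of A_52_P161365 were −3.06 in WT, −3.10 in Per3 4/4 and −2.98 in Per3 5/5. The ranges of −3.29 to −2.74, −3.37 to −2.80 and −3.24 to −2.70 overlapped almost fully. The Per3 4/4 difference from WT was −0.08 (95% interval −0.28 to 0.12) in cortex and −0.14 (−0.36 to 0.08) in hypothalamus. Whether the Clock probes differed in their response was not tested. After each probe was centred on its tissue mean, A_52_P334670 and A_52_P334677 correlated at r = 0.79 over 48 arrays, whereas A_52_P161365 correlated with them at 0.30 and 0.25. Within genotype and scan day, over 46 arrays, the same values were 0.68, −0.07 and −0.02. The points are pairs of arrays from 24 mice and share slides and scan days. Where the 3 probes lie on the Clock transcript was not analysed here.

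Npas2, the CLOCK relative, was measured by A_52_P534749. Its cortex levels had a lowest, median and highest value of −3.27, −2.90 and −2.68 in WT, −3.04, −2.74 and −2.21 in Per3 4/4, and −2.71, −2.57 and −2.51 in Per3 5/5 mice. In cortex, 7 of 8 Per3 5/5 arrays lay above all WT arrays, and their SD of 0.07 was below the 0.28 of Per3 4/4 and the 0.19 of WT. The Per3 5/5 difference from WT was 0.35 ± 0.10 (adjusted p = 0.0299), or 1.27-fold higher. With the scan day block it was 0.33 ± 0.13 (adjusted p = 0.137), and on day 3 alone, 4 Per3 5/5 against 3 WT, it was 0.38 (adjusted p = 0.256). The call ended without Per3 5/5 replicate 3, 4 or 5 or WT replicate 3, 5 or 8, with differences of 0.30 to 0.35 and adjusted p of up to 0.0636, and it also ended with median centring (0.23) and quantile normalization (0.25). For Per3 4/4 the difference was 0.25 ± 0.10 (adjusted p = 0.0753) over all mice and 0.30 (adjusted p = 0.0317) without Per3 4/4 replicate 7. With normexp it was 0.54 (adjusted p = 0.000195), where 16259 of all 29715 probes were called, 13636 of them higher. Npas2 is also transcribed in striatum. The striatum markers had a summed cortex level of 25.1 to 154 in WT (the highest in replicate 3), 17.4 to 65.7 in Per3 4/4 and 16.9 to 61.3 in Per3 5/5 mice. In cortex 0 of these 7 genes were called in either comparison with WT, beside 12.4% (Per3 5/5) and 22.5% (Per3 4/4) of all probes. Their part in the Npas2 difference was not tested.

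In hypothalamus Npas2 levels were −5.61, −5.06 and −4.48 in WT, −5.45, −4.89 and −4.60 in Per3 4/4, and −5.28, −4.80 and −4.53 in Per3 5/5 mice. The ranges overlapped almost fully. The Per3 5/5 difference there was 0.17 (95% interval −0.12 to 0.47), and its difference from the cortex value was −0.17 ± 0.15 in the test of genotype by tissue (adjusted p = 0.825). The cortex rise was thus not shown to differ from the hypothalamus value.

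Arntl, the gene of BMAL1, is itself switched on by ROR and switched off by REV-ERB proteins through shared elements. Its RefSeq promoter window, 250 bases before to 50 after the start, is printed for its matches to TNGGTCA, with N any base. These letters were searched as a loose form of the half-site of those proteins. The window holds 3 matches, at −246, −227 and 31 from the start (GRCm38.p6, plus strand, chr7:113207261-113207560, matches in capitals, both strands searched). The base at N is T, C and A in that order, and binding at the matches was not tested.
Arntl: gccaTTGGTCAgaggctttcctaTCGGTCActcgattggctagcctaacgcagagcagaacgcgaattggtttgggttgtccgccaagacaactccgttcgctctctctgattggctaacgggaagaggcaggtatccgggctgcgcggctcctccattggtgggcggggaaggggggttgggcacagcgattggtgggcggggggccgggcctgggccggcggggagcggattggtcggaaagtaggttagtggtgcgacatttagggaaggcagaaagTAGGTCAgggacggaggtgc
Of 32851 mouse promoter windows of this length, 11% held at least 1 match to TNGGTCA. A second Arntl window that starts upstream overlaps this one and holds the first 2 of these matches.

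Arntl A_52_P267651 had a lowest, median and highest cortex level of 0.49, 0.71 and 0.94 in WT, 0.63, 0.88 and 1.21 in Per3 4/4, and 0.24, 0.68 and 1.07 in Per3 5/5 mice. In hypothalamus the values were 0.06, 0.27 and 0.38 in WT, 0.06, 0.38 and 0.75 in Per3 4/4, and −0.44, 0.29 and 0.44 in Per3 5/5 mice. The genotypes overlapped in both tissues, and the widest spread was in Per3 5/5 mice (SD 0.28 in cortex and 0.32 in hypothalamus, against 0.15 and 0.10 in WT). Differences from WT were −0.05 (95% interval −0.27 to 0.17) and 0.16 (−0.06 to 0.38) in cortex and −0.08 (−0.32 to 0.16) and 0.15 (−0.09 to 0.39) in hypothalamus, for Per3 5/5 and Per3 4/4. Between the knock-ins, Per3 5/5 minus Per3 4/4 was −0.21 ± 0.11 in cortex (adjusted p = 0.337) and −0.23 ± 0.11 in hypothalamus (adjusted p = 0.315), which did not pass the test. The scan day block gave −0.20 and −0.15, and the 4 mice of each knock-in scanned on day 1 gave −0.15 and −0.01. In hypothalamus the 4 Per3 5/5 arrays of day 1 lay between 0.34 and 0.44 and the 4 of day 3 between −0.44 and 0.24, so they did not overlap. REV-ERBα is the protein of Nr1d1, whose level in hypothalamus was called higher than WT in both knock-ins, as given with the wider clock. Its relative Nr1d2 was called lower there in both. Neither call held with the scan day block, and a link of either gene to the Arntl values was not tested.

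Bhlhe40 A_51_P272553 differed least between genotypes. Its cortex levels had a lowest, median and highest value of 0.98, 1.40 and 1.62 in WT, 1.03, 1.29 and 1.59 in Per3 4/4, and 0.97, 1.39 and 1.88 in Per3 5/5 mice. The hypothalamus values were −0.17, 0.10 and 0.36 in WT, −0.28, 0.03 and 0.24 in Per3 4/4, and −0.24, 0.09 and 0.36 in Per3 5/5 mice. The genotype ranges overlapped almost fully in both tissues. The 4 differences from WT lay between −0.09 and 0.05, with 95% intervals that together reached from −0.31 to 0.29.

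Bhlhe41, the other repressor, took 6 of the 11 member calls between the knock-ins and WT. Its RefSeq promoter window (GRCm38.p6, minus strand, chr6:145865371-145865670) is printed because it holds the element through which the activators and repressors act, an E-box CACGTG at −153, shown in capitals.
Bhlhe41: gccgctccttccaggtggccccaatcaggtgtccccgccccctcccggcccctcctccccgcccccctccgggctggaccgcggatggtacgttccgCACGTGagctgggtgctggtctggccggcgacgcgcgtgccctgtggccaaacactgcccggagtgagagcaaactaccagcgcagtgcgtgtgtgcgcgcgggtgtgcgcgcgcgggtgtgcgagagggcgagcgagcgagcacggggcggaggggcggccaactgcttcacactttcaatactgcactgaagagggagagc
An E-box stood in 7.15% of the 32851 windows. The 3 Clock windows and the Npas2 window held no match to CACGTG, to the variant E-box CACGTT (in 4.68% of windows), to TNGGTCA, to the D-box TTANGTAA (2.32%) or to the CRE TGACGTCA (1.79%), which says only that these letters are not in those windows. Windows were found for 4 of the 5 genes, all but Bhlhe40. A match is a run of letters and not a shown binding site.

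At A_51_P451176, the first of its probes, cortex levels had a lowest, median and highest value of −3.44, −3.09 and −2.95 in WT, −3.03, −2.84 and −2.51 in Per3 4/4, and −2.89, −2.71 and −2.47 in Per3 5/5 mice. All 8 Per3 5/5 arrays lay above all 8 WT arrays, as was the case in either direction for 1.14% of probes tested, and 6 of 8 Per3 4/4 arrays lay above all WT arrays. Bhlhe41 was higher than WT by 0.43 ± 0.08 in Per3 5/5 cortex (adjusted p = 0.00387), or 1.35-fold, and by 0.30 ± 0.08 in Per3 4/4 cortex (adjusted p = 0.0127), or 1.23-fold. Both cortex calls held in all 24 fits that left out a mouse. They also held with the scan day block, at 0.47 ± 0.10 (adjusted p = 0.0375) and 0.30 ± 0.09 (adjusted p = 0.0466). On the arrays of a single scan day the differences were 0.52 and 0.25 and neither was called (adjusted p = 0.106 and 0.338). With array brightness as a covariate, the Per3 4/4 cortex value was 0.29 and was not called (adjusted p = 0.156).

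In hypothalamus the levels of A_51_P451176 were −2.92, −2.84 and −2.55 in WT, −2.70, −2.47 and −1.91 in Per3 4/4, and −2.46, −2.36 and −2.03 in Per3 5/5 mice. Again all 8 Per3 5/5 arrays lay above all 8 WT arrays, as for 2.66% of probes tested in that tissue, and 5 of 8 Per3 4/4 arrays did. The differences were 0.49 ± 0.10 in Per3 5/5 (adjusted p = 0.00289), or 1.40-fold, and 0.37 ± 0.10 in Per3 4/4 mice (adjusted p = 0.0171), or 1.29-fold. With the scan day block they were 0.39 ± 0.12 and 0.32 ± 0.11 and were no longer called (adjusted p = 0.0665 and 0.123). Normexp gave 0.31 for Per3 5/5 hypothalamus, which was not called (adjusted p = 0.116). It gave 0.54 for Per3 4/4 cortex, which was called, as were 16259 of all 29715 probes there, 13636 of them higher. On day 2 alone, 3 Per3 4/4 against 5 WT mice, the hypothalamus difference was 0.09 (adjusted p = 0.761), and on day 3 alone, 4 Per3 5/5 against 3 WT, it was 0.62 (adjusted p = 0.231).

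The second Bhlhe41 probe, A_52_P618912, showed the same directions with wider spread. Its cortex levels were −5.21, −4.75 and −4.32 in WT, −4.49, −4.39 and −3.82 in Per3 4/4, and −4.61, −4.41 and −3.94 in Per3 5/5 mice, and every knock-in array lay above the WT median. The cortex differences were 0.41 ± 0.13 in Per3 4/4 (adjusted p = 0.0286), or 1.33-fold, and 0.36 ± 0.13 in Per3 5/5 mice, which missed the threshold (adjusted p = 0.0669). The Per3 4/4 call held with the scan day block (0.51 ± 0.13, adjusted p = 0.0269) and ended without Per3 4/4 replicate 5 or 8 or WT replicate 6 or 8, at 0.34 to 0.37. It passed for Per3 5/5 without WT replicate 1 (0.41, adjusted p = 0.0460) or 2 (0.42, adjusted p = 0.0431).

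In hypothalamus the levels of A_52_P618912 were −5.23, −4.10 and −3.82 in WT, −4.11, −3.93 and −3.55 in Per3 4/4, and −4.05, −3.75 and −3.24 in Per3 5/5 mice. The WT value of −5.23 again belonged to replicate 3, and the next lowest WT array was at −4.21. The Per3 5/5 difference was 0.51 ± 0.16 (adjusted p = 0.0345) over all mice, 0.36 (adjusted p = 0.0489) without WT replicate 3, and uncalled without Per3 5/5 replicate 5, 6 or 7 (0.45 to 0.47). It was 0.52 ± 0.18 and uncalled with the scan day block (adjusted p = 0.101), and 0.35 with normexp (adjusted p = 0.216). The 4 Per3 5/5 arrays of day 1 lay between −4.05 and −3.83. The 4 of day 3, which include replicates 5, 6 and 7, lay between −3.68 and −3.24, so the days did not overlap. The Per3 4/4 difference was 0.31 ± 0.16 (adjusted p = 0.185) over all mice and 0.16 (adjusted p = 0.377) without WT replicate 3. The pair of Bhlhe41 probes correlated at r = 0.67 over 48 tissue-centred arrays, and at 0.53 within genotype and scan day.

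Markers of other cells were read beside these values. In hypothalamus, 7 of 7 oligodendrocyte genes (such as Mbp and Mog) were higher in Per3 4/4 and 4 of 7 in Per3 5/5 than in WT mice, with summed levels of 175 to 257 in WT, 234 to 328 in Per3 4/4 and 213 to 272 in Per3 5/5. Of all probes, 15.1% and 18.8% were called in those comparisons. With the scan day block 2 of 7 and 0 of 7 of these genes were called, beside 0.745% and 2.1% of all probes. In cortex 0 of 7 oligodendrocyte genes were called in either comparison, beside 12.4% (Per3 5/5) and 22.5% (Per3 4/4) of all probes. The summed levels there were 87.9 to 184 in WT, 111 to 174 in Per3 4/4 and 70.8 to 183 in Per3 5/5. Of the other lists in hypothalamus, Per3 5/5 minus WT gave 2 of 7 cortex genes higher, 1 of 8 hypothalamus genes lower, 2 of 5 astrocyte genes higher and 1 lower, 2 of 7 striatum genes higher, 1 of 6 suprachiasmatic nucleus genes higher and 2 lower, 2 of 4 blood genes lower, 1 of 3 endothelium genes higher, and 1 each of 4 choroid plexus and 5 pituitary genes lower. Per3 4/4 minus WT there gave 1 cortex gene higher, 1 hypothalamus gene higher and 1 lower, 1 astrocyte and 2 striatum genes higher and 1 suprachiasmatic nucleus gene lower, with none called for blood, endothelium, choroid plexus or pituitary. In cortex, Per3 5/5 minus WT gave 1 of 7 cortex genes and 2 of 6 hypothalamus genes higher, beside 12.4% of all probes called. Per3 4/4 minus WT there gave 2 of 7 cortex genes higher and 1 lower, beside 22.5%. The other call in cortex was 1 of 3 choroid plexus genes, higher in each knock-in, and no thalamus gene was called in either tissue. With the scan day block no marker gene was called in Per3 5/5 cortex, beside 0.986% of all probes. Per3 4/4 cortex then gave 1 cortex gene higher, 1 cortex gene lower and 1 hypothalamus gene higher, beside 7.72%. The part of these cells in the members' values was not tested.

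**Figure D2:**
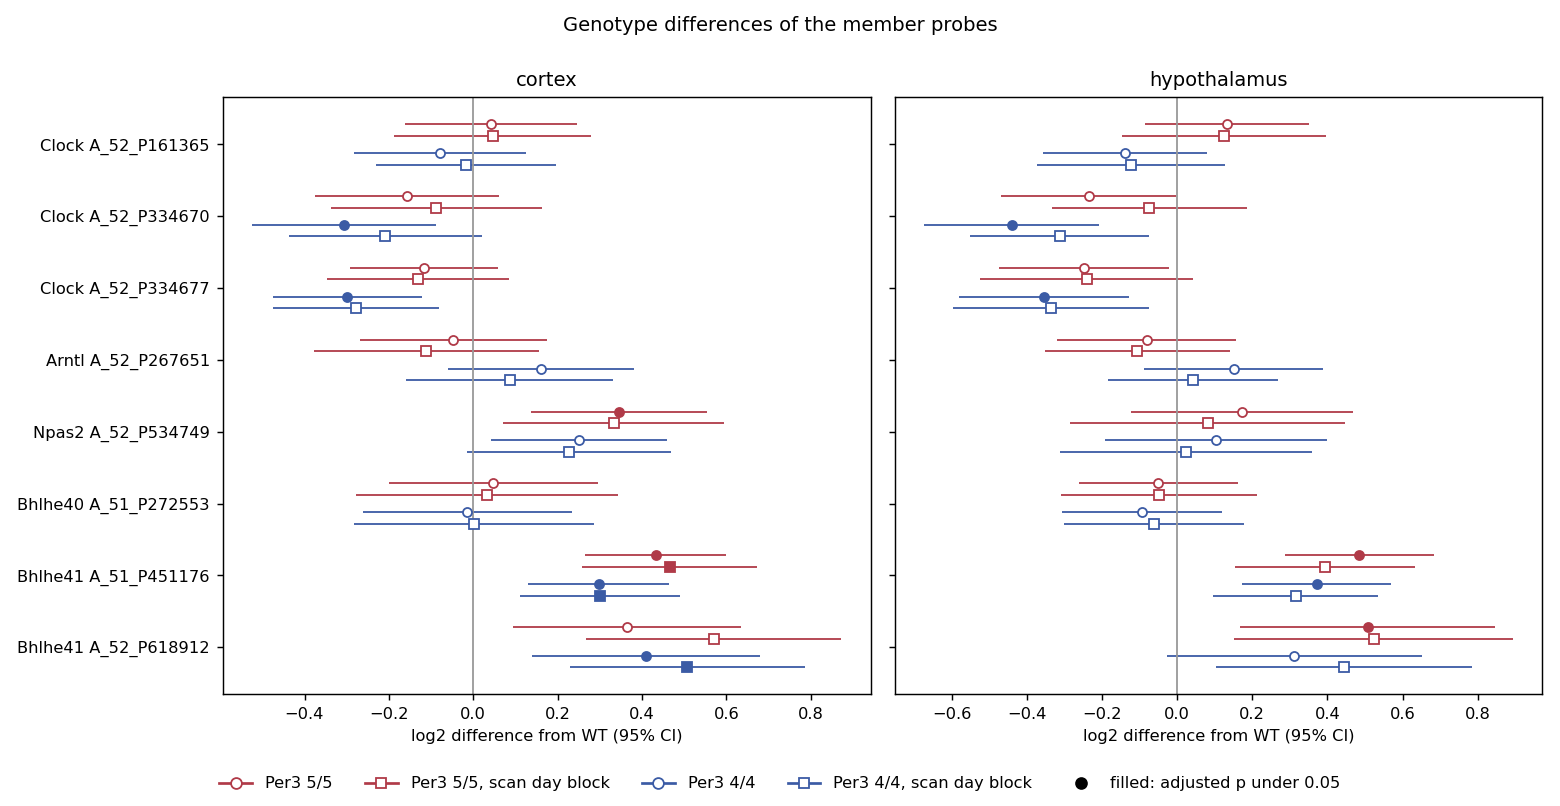
Log2 difference of each member probe from WT with its 95% interval, in cortex (left) and hypothalamus (right), for Per3 5/5 (red) and Per3 4/4 (blue), from the fit without (circles) and with (squares) scan day as a block. Filled symbols have an adjusted p under 0.05. The 4 Bhlhe41 values in each panel lie right of 0, from 0.30 to 0.51 without the block, and 3 squares in all are filled, each for Bhlhe41 in cortex.

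The knock-ins were also set against each other. None of the 8 member probes was called between them in either tissue, as were 0% of all probes, and no probe's 8 arrays lay fully apart, a separation seen at 0.037% of all cortex probes and 0.026% of all hypothalamus probes. Before adjustment, at a limma p under 0.05, Clock A_52_P334677 in cortex (0.18 higher in Per3 5/5) and Clock A_52_P161365 in hypothalamus (0.27 higher) passed, beside 15.7% and 16.2% of all probes. They were 0.15 and 0.25 with the scan day block, and 0.03 and −0.0010 among the 4 mice of each line scanned on day 1. The methods' t-test also called 0 members after adjustment. For Bhlhe41 A_51_P451176 the Per3 5/5 minus Per3 4/4 difference was 0.14 (95% interval −0.03 to 0.30) in cortex and 0.11 (−0.08 to 0.31) in hypothalamus. It was 0.17 and 0.08 with the scan day block and 0.12 and −0.10 on day 1, and normexp turned both (−0.13 and −0.10).

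The tissues were compared within each mouse. Each of the 8 probes was called between hypothalamus and cortex of the same mice in each genotype, where 58.6% (Per3 5/5), 59% (Per3 4/4) and 59.5% (WT) of 31228 probes tested were called. The activators and Bhlhe40 were lower in hypothalamus, and Bhlhe41 was higher.

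Npas2 had the widest tissue difference. In all 24 mice its level was lower in hypothalamus than in cortex, with differences from −2.80 to −1.76 on the log2 scale. The mean difference was −2.25 ± 0.25 (SD, n = 8) in Per3 5/5, −2.22 ± 0.37 in Per3 4/4 and −2.08 ± 0.26 in WT mice, or cortex levels 4.75-fold, 4.66-fold and 4.22-fold higher, and no hypothalamus array reached the lowest cortex array. With normexp background correction the means were −1.23, −1.14 and −1.01 and still called. Bhlhe40 was also lower in hypothalamus in all 24 mice, with mean differences of −1.30 ± 0.23 in Per3 5/5, −1.28 ± 0.14 in Per3 4/4 and −1.20 ± 0.29 in WT mice, or 2.46-fold, 2.43-fold and 2.30-fold higher in cortex. The tissues did not overlap for Bhlhe40 either, as for 20.6% of probes in Per3 5/5, 26% in Per3 4/4 and 28% in WT mice.

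Arntl was lower in hypothalamus, with mean differences of −0.52 ± 0.29 in Per3 5/5, −0.49 ± 0.20 in Per3 4/4 and −0.49 ± 0.18 in WT mice (SD, n = 8), and in 23 of 24 mice. Clock was lower in hypothalamus at each probe in 23 of 24 mice. At A_52_P334670 the means were −0.38 ± 0.24, −0.44 ± 0.22 and −0.31 ± 0.25 in Per3 5/5, Per3 4/4 and WT mice. At A_52_P161365 they were −0.21 ± 0.13, −0.36 ± 0.29 and −0.30 ± 0.14. The Per3 5/5 value of that probe was no longer called without replicate 5 (−0.17, adjusted p = 0.0607). With normexp the call ended in Per3 5/5 (−0.21, adjusted p = 0.0698) and in WT mice (−0.13, adjusted p = 0.288). At A_52_P334677 they were −0.33 ± 0.18, −0.26 ± 0.12 and −0.20 ± 0.34. The WT value of A_52_P334677 had an adjusted p of 0.0433. Without WT replicate 3 it was −0.32 and called, and without any 1 of the other 7 WT mice it lay between −0.20 and −0.17 and was not called. It was also uncalled with the scan day block, with no filter on low signal and with normexp (−0.14, adjusted p = 0.206).

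Bhlhe41 ran the other way. At A_51_P451176 the hypothalamus level was higher by 0.38 ± 0.13 in Per3 5/5, 0.40 ± 0.28 in Per3 4/4 and 0.33 ± 0.20 in WT mice (SD, n = 8), and in 23 of 24 mice. At A_52_P618912 it was higher by 0.66 ± 0.37, 0.42 ± 0.20 and 0.52 ± 0.45, in 22 of 24 mice. These are 1.26-fold to 1.58-fold differences. With normexp, both probes of Bhlhe41 lost the call in Per3 5/5 (0.19 and 0.29, adjusted p = 0.0917 and 0.08) and in Per3 4/4 mice (0.16 and 0.05, adjusted p = 0.157 and 0.756), and A_52_P618912 lost it in WT (0.29, adjusted p = 0.0696). Oligodendrocyte markers were higher in hypothalamus in 7 of 7 genes in Per3 5/5 and Per3 4/4 and 6 of 7 in WT mice. Of 31228 probes tested, 9184, 9724 and 9945 were called higher there in those genotypes. Other lists were also higher by summed level, such as thalamus (WT median 30.3 against 2.84 in cortex). In WT mice the cortex (1.04 against 18.0) and endothelium lists (9.57 against 11.9) were lower. The part of any of these cells in the Bhlhe41 difference was not tested.

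**Figure D3:**
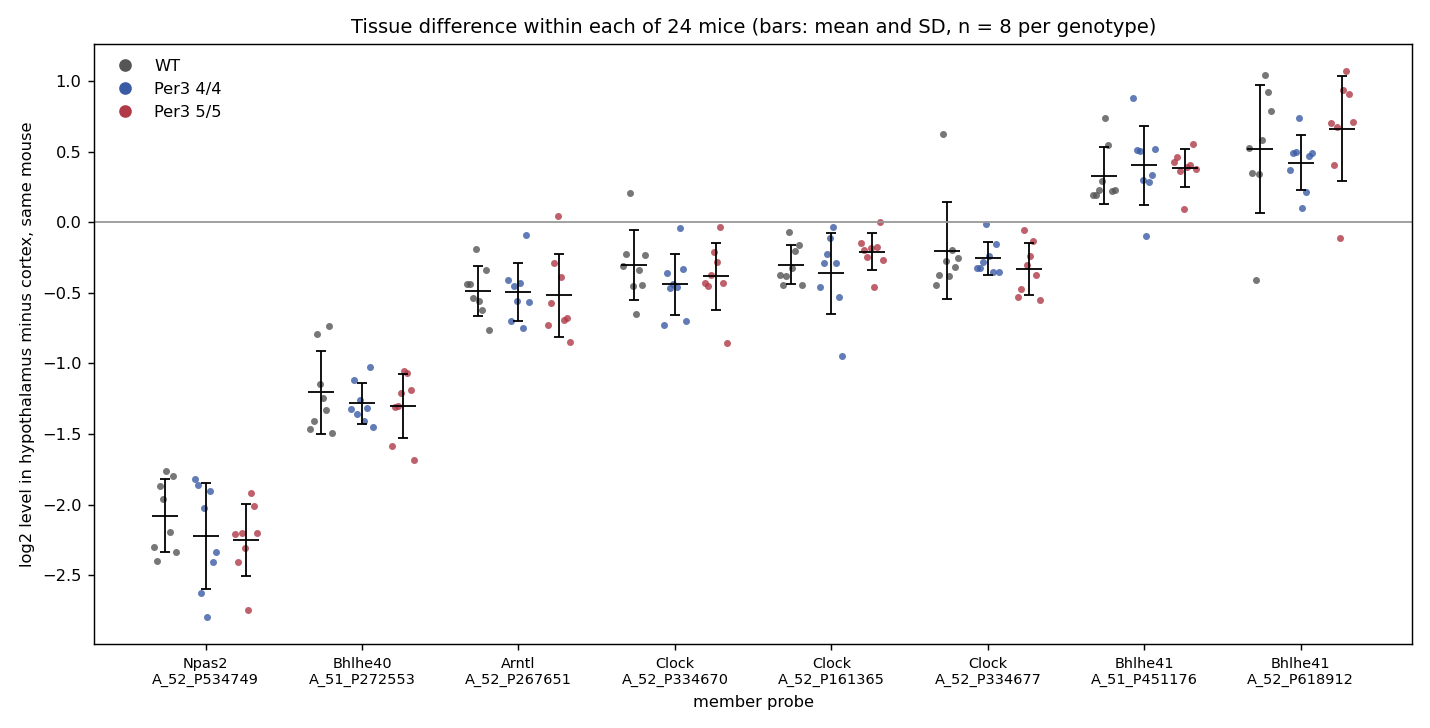
Log2 level in hypothalamus minus that in cortex of the same mouse for each member probe, 1 point for each of 24 mice coloured by genotype, with black bars for mean and SD (n = 8). Npas2 lies between −2.80 and −1.76 and Bhlhe40 between −1.68 and −0.73, all below 0, while most mice lie above 0 for both Bhlhe41 probes.

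The tissue differences did not differ between genotypes beyond their error at any member probe: 0 of 8 were called in each of the 3 tests of genotype by tissue, in which 0.00961%, 0.0032% and 0% of all probes were called, and no member had an unadjusted p under 0.05 in limma, where 6.22%, 5% and 3.83% of all probes did. The 95% intervals of these 24 values together reached from −0.48 to 0.60. The level of a mouse in cortex went with its level in hypothalamus at r = 0.38 (Npas2) to 0.68 (Bhlhe41 A_51_P451176) across 24 mice, where the median over 30915 probes was 0.45. Within genotype and scan day (23 mice) the range was 0.11 to 0.55 with a median over all probes of 0.21. Both arrays of a mouse shared a slide.

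Ordered by mean level over the 6 groups, Npas2 and Bhlhe40 each fell into 3 cortex groups above 3 hypothalamus groups. For Npas2 the gap between the lowest cortex group (WT) and the highest hypothalamus group (Per3 5/5) was 1.90, against SDs of at most 0.35, and no other neighbours differed by more than the larger SD of the pair. For Bhlhe40 the gap was 1.19 and no other neighbours differed beyond their SD. Arntl ran from 0.89 in Per3 4/4 cortex through WT and Per3 5/5 cortex to 0.40 in Per3 4/4, 0.25 in WT and 0.16 in Per3 5/5 hypothalamus, and only the step between the tissues exceeded the SD. Bhlhe41 A_51_P451176 ran from −2.32 in Per3 5/5 hypothalamus and −2.43 in Per3 4/4 hypothalamus to −3.13 in WT cortex, with WT hypothalamus (−2.80) between the cortex of Per3 5/5 (−2.70) and of Per3 4/4 mice (−2.84). The steps that exceeded the SD were those below Per3 4/4 hypothalamus and above WT cortex. For Clock A_52_P334670 WT cortex was highest at 0.17 and Per3 4/4 hypothalamus lowest at −0.58, and only the step from Per3 4/4 cortex (−0.14) to Per3 5/5 hypothalamus (−0.37) reached the SD. At the other Clock probes no neighbours differed beyond their SD, and at Bhlhe41 A_52_P618912 only WT cortex (−4.70) stood below its neighbour by more than the SD.

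Members were also set against each other across the 48 tissue-centred arrays, as a description. Clock and Bhlhe40 went together (r = 0.48 and 0.53 for Clock A_52_P334670 and A_52_P334677, and 0.48 and 0.50 within genotype and scan day), except at A_52_P161365, which was at 0.15 and −0.12. Clock A_52_P334677 and Bhlhe41 A_52_P618912 ran opposite, at −0.50 both ways of centring, while A_52_P161365 and that probe were at 0.32 and 0.37. Npas2 went with Bhlhe41 A_51_P451176 at 0.58, and at 0.38 within genotype and scan day. Arntl ran opposite to Clock A_52_P334670 at −0.41 and −0.24. These points share mice, slides, scan days and array brightness. The level of Clock A_52_P334677 in cortex went with the log2 brightness of the array at r = 0.61 over 24 arrays and 0.38 within genotype and scan day (23 arrays), and that of Bhlhe41 A_51_P451176 at −0.40 and 0.08.

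The genes whose pattern over the 48 tissue-centred arrays was most like each member, taken at A_52_P334670 for Clock and A_51_P451176 for Bhlhe41, were Slain2 (r = 0.94), Zbtb6 (0.93) and Caap1 (0.93) for Clock, and Mblac2 (0.86), Kbtbd2 (0.83) and Hs2st1 (0.82) for Arntl. For Npas2 they were Jph4 (0.72), 1700016K19Rik (0.71) and Bri3bp (0.70), for Bhlhe40 Bzw1 (0.68), Zswim3 (0.68) and Mkx (0.66), and for Bhlhe41 Pcbp4 (0.83), Cacnb3 (0.82) and Gm2a (0.82). Within genotype and scan day the values for Clock lay between 0.89 and 0.90, and those for Bhlhe41 were 0.54, 0.62 and 0.51.

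The wider clock was read from 27 other genes, all tested, with 1 probe each. In Per3 5/5 cortex 4 of 27 were higher than WT and 0 lower, where 12.4% of all probes were called in either direction, with a median difference of 0.11 against 0.06 over all probes. The 4 were Per1 (0.28) and Per3 (0.69), which encode PER repressors, Cry2 (0.26), which encodes a CRY repressor, and Sirt1 (0.34), a deacetylase that acts on clock proteins. In Per3 4/4 cortex 6 were higher and 4 lower, beside 22.5% of all probes called, with a median of −0.03 against 0.02. The higher genes were Per3 (0.41), Cry2 (0.35), Nr1d1 (0.42), the E-box target Dbp (0.29), Btrc (0.52), which helps to degrade PER proteins, and the kinase gene Gsk3b (0.37). The lower genes were Ciart (−0.75), whose protein represses the activator pair, Timeless (−0.26), Id2 (−0.25), and Nr1d2 (−0.24), the REV-ERB relative of Nr1d1.

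In hypothalamus, 5 of the 27 were higher and 3 lower in Per3 5/5 than in WT mice (18.8% of all probes called, median 0.05 against 0.03), and 3 were higher and 3 lower in Per3 4/4 mice (15.1% of all probes called, median −0.06 against 0.02). Nr1d1 (0.55 and 0.59), Dbp (0.32 and 0.38), Nr1d2 (−0.32 and −0.33), Nfil3 (−0.41 and −0.36), a repressor at D-boxes, and Fbxl21 (−0.51 and −0.29), which acts on CRY stability, were called in both knock-ins, given as Per3 5/5 and then Per3 4/4. Per3 (0.47), Cry2 (0.24) and Gsk3b (0.36) were called in Per3 5/5 and Btrc (0.66) in Per3 4/4 mice. With the scan day block, Cry2 (0.23), Nr1d2 (−0.24) and Id2 (−0.25) were called in Per3 4/4 cortex, beside 7.72% of all probes. Fbxl21 (−0.43) was called in Per3 5/5 hypothalamus, beside 2.1% of all probes. No other gene of the list was called with the block in any genotype comparison. Of the 27 genes, 0 were called between the knock-ins in either tissue. Without adjustment, limma gave a p under 0.05 for 3 of them in cortex, beside 15.7% of all probes, and for 6 in hypothalamus, beside 16.2%.

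Between the tissues, 15 of the 27 were lower and 5 higher in hypothalamus than in cortex in Per3 5/5 mice. The counts were 16 lower and 4 higher in Per3 4/4, and 16 lower and 6 higher in WT mice. Of all 31228 probes tested, 9100, 8702 and 8640 were called lower and 9184, 9724 and 9945 higher, in that order of genotypes. The medians of the 27 were −0.38, −0.28 and −0.35, against −0.02, 0.02 and 0.03 over all probes. Cry1 (0.24 to 0.48) and Sirt1 (0.48 to 0.54) had higher levels in hypothalamus in each genotype. Per1 (−0.68 to −0.52), Cry2 (−0.89 to −0.77), Hlf (−1.23 to −1.06) and Usp2 (−1.25 to −1.05) had lower ones.

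**Figure D4:**
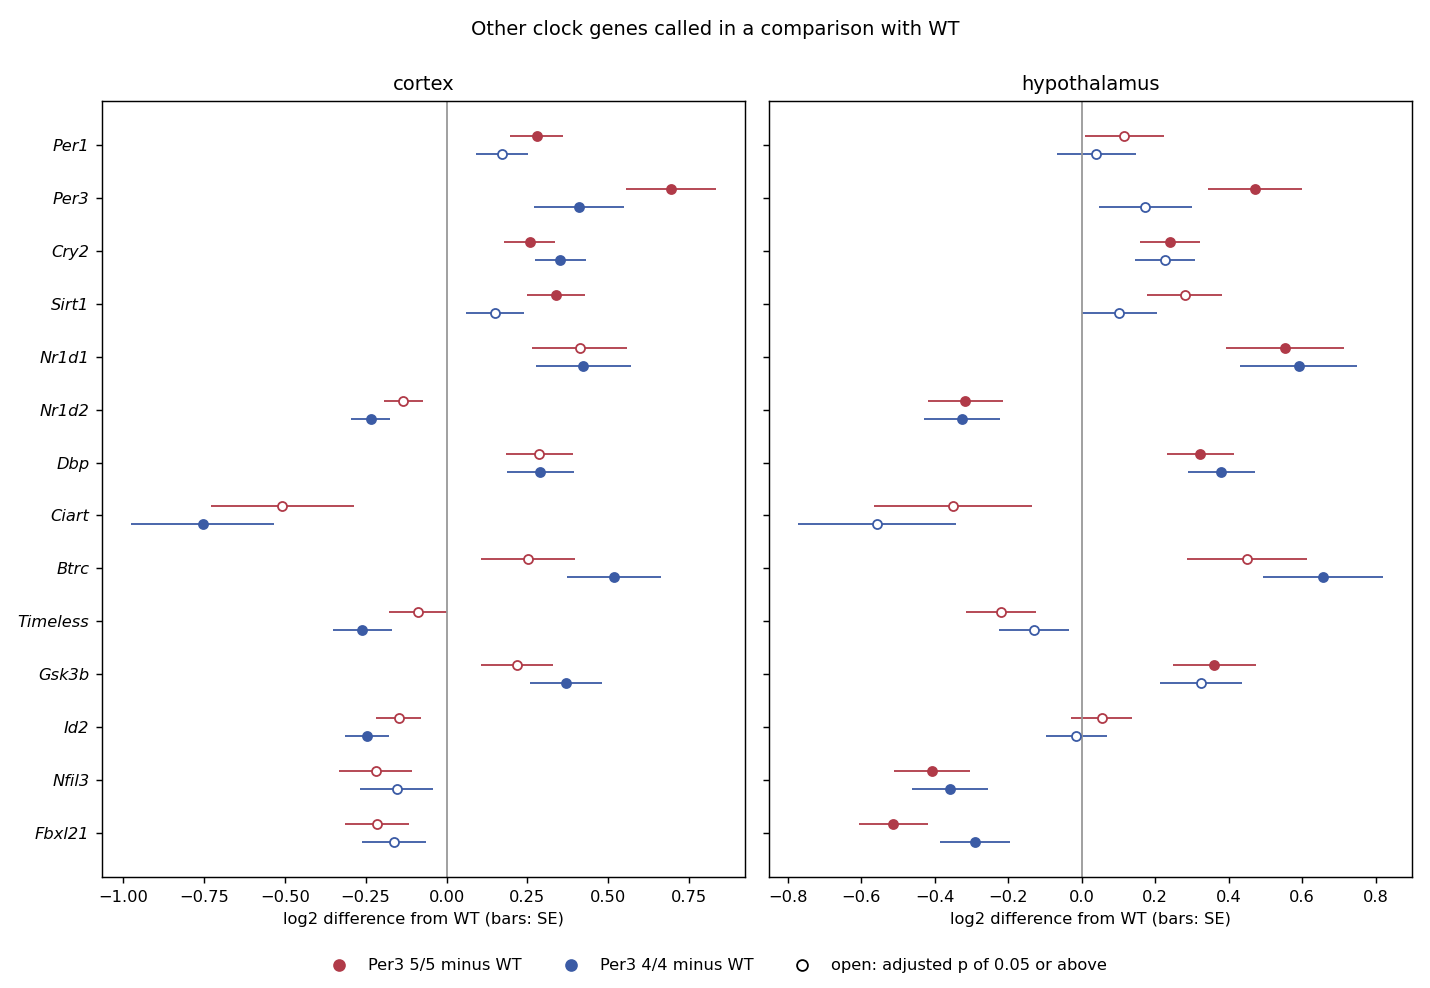
Log2 difference from WT, with SE bars, of those of the 27 other clock genes that were called in at least 1 comparison with WT, in cortex (left) and hypothalamus (right), for Per3 5/5 (red) and Per3 4/4 (blue). Filled points have an adjusted p under 0.05 over all probes tested, which is the case for 4 and 10 genes in cortex and 8 and 6 in hypothalamus.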

How the data were processed

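RNA from 48 samples was hybridised to 1-colour Agilent whole mouse genome arrays. The deposited files hold the processed intensity of each spot, which per the file headers Feature Extraction 10.7.1.1 had background-subtracted and detrended, with array annotation of build mm9. The deposited quality calls, coded other than intensities as 0 or 1, mark spots well above background and outliers. The authors also deposited a table of log2 values, shifted in GeneSpring to the 75th percentile of each array, which served as an alternative.

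Here the log2 intensity minus the log2 75th percentile of the array was used. Outlier spots were dropped and spots of 1 probe averaged. Probes were named through RefSeq accessions (27668 of 41174), and a probe was tested if 6 or more of the 8 arrays in any group had it well above background. Genotypes were compared within a tissue with limma 3.58.1 in R 4.3.3 (lmFit and eBayes, two-sided, 3 group means in 1 fit), tissues through the difference within each mouse (labels give both tissues of a mouse; r of 0.109 to 0.688 in 24 pairs). Benjamini-Hochberg adjustment ran over every probe tested. The fit was tested on simulated data with independent noise. Those data held no effect of scan day, slide or brightness, so that test does not cover these. The number of arrays limits the precision. Rank product analysis was not run.

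Alternatives were median centring, quantile normalization, the 75th percentile of detected probes, normexp (offset 50), other filters, scan day, slide, replicate and brightness terms, the authors' table, the methods' t-test and leaving out each mouse. Named genes were all member probes, the called genes of a clock list, and for each member the 3 genes most like it. The members and lists were chosen with earlier results of these data known. Lists of markers were read as counts: cortex, hypothalamus, suprachiasmatic nucleus, striatum, thalamus, oligodendrocytes, astrocytes, choroid plexus, pituitary, blood and endothelium. Promoter windows came from RefSeq (GRCm38.p6) and were used for letters only. Single values of a few listed genes are not reported here.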

Additional observations from a re-analysis of the deposited data

Results flagged for a closer look

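In 3 of the 48 sets of 8 arrays (8 probes, 6 groups), the highest or lowest array lay far from the other 7 by Dixon's test, where chance flags about 1 in 20. Bhlhe41 A_52_P618912 was at −5.23 in the hypothalamus of WT replicate 3, with the other 7 WT arrays between −4.21 and −3.82. Clock A_52_P334677 was at −2.01 in the hypothalamus of the same mouse, with the other 7 between −2.92 and −2.67. Npas2 A_52_P534749 was at −2.71 in the cortex of Per3 5/5 replicate 6, with the other 7 between −2.61 and −2.51. Over all probes, the hypothalamus array of WT replicate 3 correlated with the other 7 of its group at a mean r of 0.9753. That was the lowest value in its group, where the other 7 arrays had 0.9805 to 0.9880. The lowest of the 48 arrays had 0.9714.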

How the results depend on the processing

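Settings are listed here where they moved a count most, and smaller moves in other settings are mostly left out. Between Per3 5/5 and WT in cortex, 2 member probes were called in the main fit. The count was 1 with median centring, quantile normalization or the scan day block, 4 with normexp and 0 within 1 scan day. Of all 29715 probes tested, 3670 were called in the main fit and 3423, 3151, 293, 9319 and 1 in those fits, in that order. Between Per3 4/4 and WT in cortex, 4 were called, against 2 with the scan day block and 0 with brightness as a covariate or within 1 scan day. Of all probes, 6696 were called in the main fit and 2294, 132 and 164 in those fits. In hypothalamus, Per3 5/5 minus WT gave 2, against 1 with the authors' table, no filter, slide as a random block or the methods' t-test, and 0 with normexp, the scan day block or within 1 scan day. Of all probes, 5788 of 30735 were called in the main fit. The authors' table and no filter called 4567 and 4608 of 41174, and the other fits 3221, 4051, 1922, 644 and 1 of 30735, in that order. Per3 4/4 minus WT gave 3 (4628 of all probes), against 0 with the scan day block (229) or within 1 scan day (5). Clock A_52_P334677 also lost its call in that comparison in the other fits given with that probe. Between tissues, 8 were called in each genotype, against 5 with normexp in Per3 5/5 and in WT. Of 31228 probes, normexp called 14428 and 15314 in those genotypes, against 18284 and 18585 in the main fit. In Per3 4/4 mice normexp ended the tissue call of both Bhlhe41 probes, where it called 14572 of all probes against 18426. Leaving out 1 mouse gave 1 to 3, 2 to 4, 1 to 2 and 2 to 3 calls in the 4 comparisons with WT in that order, 7 to 8, 8 to 8 and 7 to 8 between tissues in Per3 5/5, Per3 4/4 and WT, and 0 to 0 elsewhere. In Per3 4/4 minus WT in cortex, normexp reversed 2 Clock differences, A_52_P161365 from −0.08 to 0.31 (adjusted p = 0.00438) and A_52_P334677 from −0.30 to 0.039. Normexp called 16259 of all 29715 probes in that comparison, 13636 of them higher. Among the 11 called genotype differences, 1 of 143 alternative values changed sign. The causes were not tested. Same-numbered mice of different genotypes are different animals (r of −0.383 to 0.499 between their deviations). Some of them share a slide or scan day, as replicates 1 to 4 of both knock-ins share slides 1 to 4 and day 1. The number is thus partly a batch term. With that number as a replicate block the calls were 2, 3, 2 and 3, with Clock A_52_P334670 lost in Per3 4/4 cortex. With that block 3671, 6899, 6407 and 5358 of all probes were called. Without the pairing of tissues by mouse, 7, 8 and 7 member probes were called between tissues, beside 15632, 15964 and 16197 of all 31228 probes. All 8 probes were well above background on every array. The choice of background correction still moved values, as for Npas2 between tissues in WT mice (−2.08, and −1.01 with normexp).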
